A study of Bos taurus with 29 samples.

Results

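The genes described here carry symbols of proteins of the cytosolic ribosome and were read in bovine corpus luteum. They were taken by name, as every row of the corpus luteum count table whose symbol is RPL, RPS or RPLP followed by a number and at most a short suffix. This gave 77 of the 19112 genes in the table, 47 of the large subunit (RPL, including the 3 stalk proteins) and 30 of the small subunit (RPS). All 77 are current symbols in the reference gene table, and all 77 were among the 18939 genes that passed the filter on low counts. RPL41, RPL35A, RPL3L, RPL10L, RPL39L and RPS27L did not match a row and were not analysed here.

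A cytosolic ribosome is built from a small subunit, which reads the message, and a large subunit, which joins amino acids, and nearly all of the proteins are needed in equal number. Their mRNAs begin with a stretch of pyrimidines, the TOP motif, through which mTOR signalling and the RNA-binding protein LARP1 control their translation and stability together with those of the elongation factors. The corpus luteum is a gland of steroid-producing luteal cells among dense capillaries, and its output of progesterone rests on proteins that are continually replaced.

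The study concerns signals from bovine embryo and endometrium to the corpus luteum, and polyA RNA was sequenced from tissue that the labels give as of slaughterhouse source. Endometrial explants were kept alone, with 1 in vivo embryo of day 7 (EE-AI) or with 1 in vitro embryo of that day (EE-IVF). The corpus luteum groups are CL-NC (treatment label DMEN), taken as the control, CL-CM-EE for explants alone, CL-CM-EE-AI for explants with the in vivo embryo and, for those with the in vitro embryo, CL-CM-EE-IVF. CM was taken to mean that the tissue received medium in which explants had been kept, although the labels do not say what it abbreviates. Each of the 4 groups has 3 libraries, numbered R2, R4 and R5, so that every number occurs once in every group. The sources used here do not say what an R number stands for (an animal, a culture or a run), and the R2 sample titles take another form than those of R4 and R5. Each R4 and R5 library has a pair of sample titles and each R2 library a single title, and how a pair was joined is not stated. A contrast of R2 with R4 and R5 falls on this same split, and whether the split bears on it was not tested. Nothing says that libraries of a group came from separate animals, so the p-values measure the spread between these libraries only.

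Library totals ran from 16536797 to 25747637 counts, and mitochondrially encoded genes held 44.4% to 64.0% of them. Luteal cell markers were detected in every library: 8 steroidogenic markers summed to between 1431 and 6433 CPM (counts scaled to library size and composition), and 7 T cell markers and 4 B cell markers to at most 10.7 and 4.58 CPM. Without transcript lengths, these sums and the ratios between paralogues below are of counts and do not rank the levels of different genes. Ribosomal protein genes have many near-identical processed copies in mammalian genomes, and the sources used here do not say how reads matching several places were counted, so the count of a single member is uncertain to that extent.

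The family took up about 1% of all reads, and that share differed with the R number while the groups overlapped. In CL-NC the 77 genes together held 1.32% of all counts in R2, 0.646% in R4 and 0.818% in R5. In CL-CM-EE the shares were 1.17%, 0.764% and 0.545% in the same order. In CL-CM-EE-AI they were 1.26%, 1.04% and 0.756%, and in CL-CM-EE-IVF 1.32%, 0.977% and 0.845%. The R2 library was the highest in all 4 groups, and the groups overlapped throughout, with means of 0.928% ± 0.351, 0.827% ± 0.318, 1.02% ± 0.25 and 1.05% ± 0.246 (SD, n = 3 each). By number the means were 1.27% ± 0.0714 in R2, 0.857% ± 0.185 in R4 and 0.741% ± 0.136 in R5 (SD, n = 4 each). Wilson 95% intervals reached at most 0.00499 percentage points to either side and cover counting error only.

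Mitochondrial reads also differed with the number, at a mean of 52.2% in R2, 46.3% in R4 and 58.5% in R5, so the share was taken again over counts outside mitochondrial genes and nuclear rRNA. It was then 2.86% ± 0.21 in R2, 1.69% ± 0.416 in R4 and 1.90% ± 0.174 in R5 (SD, n = 4 each). The 4 R2 libraries lay between 2.73% and 3.17%, the other 8 between 1.22% and 2.13%, with no overlap.

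**Figure D1:**
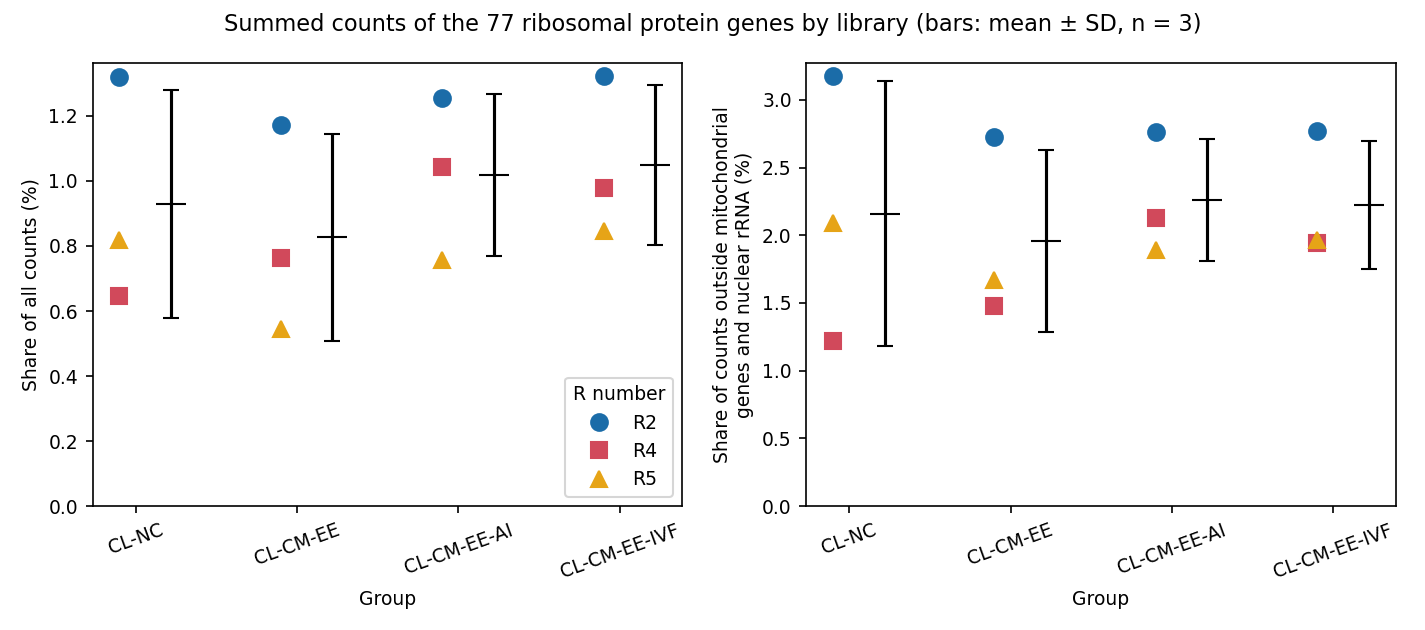
Summed counts of the 77 ribosomal protein genes in each library, as a percentage of all counts (left) and of counts outside mitochondrial genes and nuclear rRNA (right), by group on the x axis. Points are libraries, coloured by R number, and black bars are the group mean ± SD of 3 libraries. The R2 library is the highest point in every group, and the group bars overlap.

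The difference between R numbers was spread over nearly the whole family. In edgeR's quasi-likelihood test of the R terms, fitted over all genes with the groups in the model, 56 of the 77 members passed an adjusted p of 0.05, against 26.7% of all genes tested. All 56 had their highest mean in R2, which 7.88% of all genes tested did while passing. They comprised 32 of 47 large-subunit and 24 of 30 small-subunit members. Whether called or not, 75 of the 77 were highest in R2 (31.3% of all genes were), and in 60 of the 77 each of the 4 R2 libraries stood above each of the other 8 (4.78% of all genes). Against R2, 43 members were lower in R4 and 0 higher, where 4.93% and 8.72% of all genes were called lower and higher. In R5, 54 were lower than in R2 and 0 higher, where 9.26% and 11.5% of all genes were. The median member differed from R2 by -0.72 in R4 and by -0.75 in R5 on the log2 scale, while the median of all genes tested was 0.04 and 0.08. R5 and R4 were close to each other, with a median of -0.07, 0 members lower and 1 higher (8.67% and 5.58% of all genes).

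RPS9 and RPL8 were among the members with the lowest p between R numbers. RPS9, which helps fold the small subunit's RNA early in assembly, stood at 45.0 CPM in R2 of the control and at 42.7, 37.5 and 36.1 CPM in R2 of the explant, in vivo embryo and in vitro embryo media. Its R4 libraries, in this group order, which is kept below, gave 15.2, 21.9, 13.7 and 17.9 CPM, and its R5 libraries 18.4, 10.1, 15.7 and 16.49 CPM. The lowest R2 library was thus well above the highest of the others. The log2 difference from R2 was -1.23 (SE 0.21) in R4 and -1.41 (SE 0.22) in R5, with an adjusted p of 0.000626 for the R terms in edgeR.

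RPL8, which lines the peptidyl transferase centre, had 310, 318, 266 and 275 CPM in R2, 91.8, 134, 164 and 138 CPM in R4, and 157, 113, 139 and 133 CPM in R5. Its R2 libraries did not overlap with the rest either. The means were 292 ± 25.4, 132 ± 30.0 and 135 ± 18.3 CPM (SD, n = 4), with an edgeR adjusted p of 0.000965.

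Among members known for their roles, in the ribosome or beyond it, most passed in edgeR. In the stalk, which recruits elongation factors, RPLP0 stood at 193, 118 and 89.4 CPM in R2, R4 and R5 (means of 4, adjusted p = 0.00419), and RPLP2 at 79.0, 46.6 and 41.5 CPM (0.00753). RPLP1 narrowly missed the edgeR threshold at 216, 148 and 123 CPM (0.0506), while its DESeq2 adjusted p was 0.00187. RPL11, which with RPL5 and its bound ribosomal RNA restrains MDM2 when assembly fails, had means of 156, 89.7 and 80.3 CPM (0.00737). RPS6, phosphorylated downstream of mTOR, had 278, 185 and 183 CPM (0.04), and RPS19, often mutated in Diamond-Blackfan anaemia, 166, 95.7 and 104 CPM (0.00638). RPS3, at the messenger entry, RPL3, near the catalytic centre, and RPL10, which joins late in assembly, passed as well, with adjusted p of 0.00814, 0.0137 and 0.00509, and so did RPL39, at the mouth of the exit tunnel (0.0113), and RPS4X (0.0227). Among the members that did not pass in edgeR were the zinc-binding RPS27 (292, 186 and 194 CPM, adjusted p = 0.218), RPS23, in the decoding centre (210, 180 and 162 CPM, 0.202), and RPS29 (50.4, 46.2 and 38.2 CPM, 0.403). Their DESeq2 adjusted p were 0.0524, 0.0468 and 0.226 in this order.

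**Figure D2:**
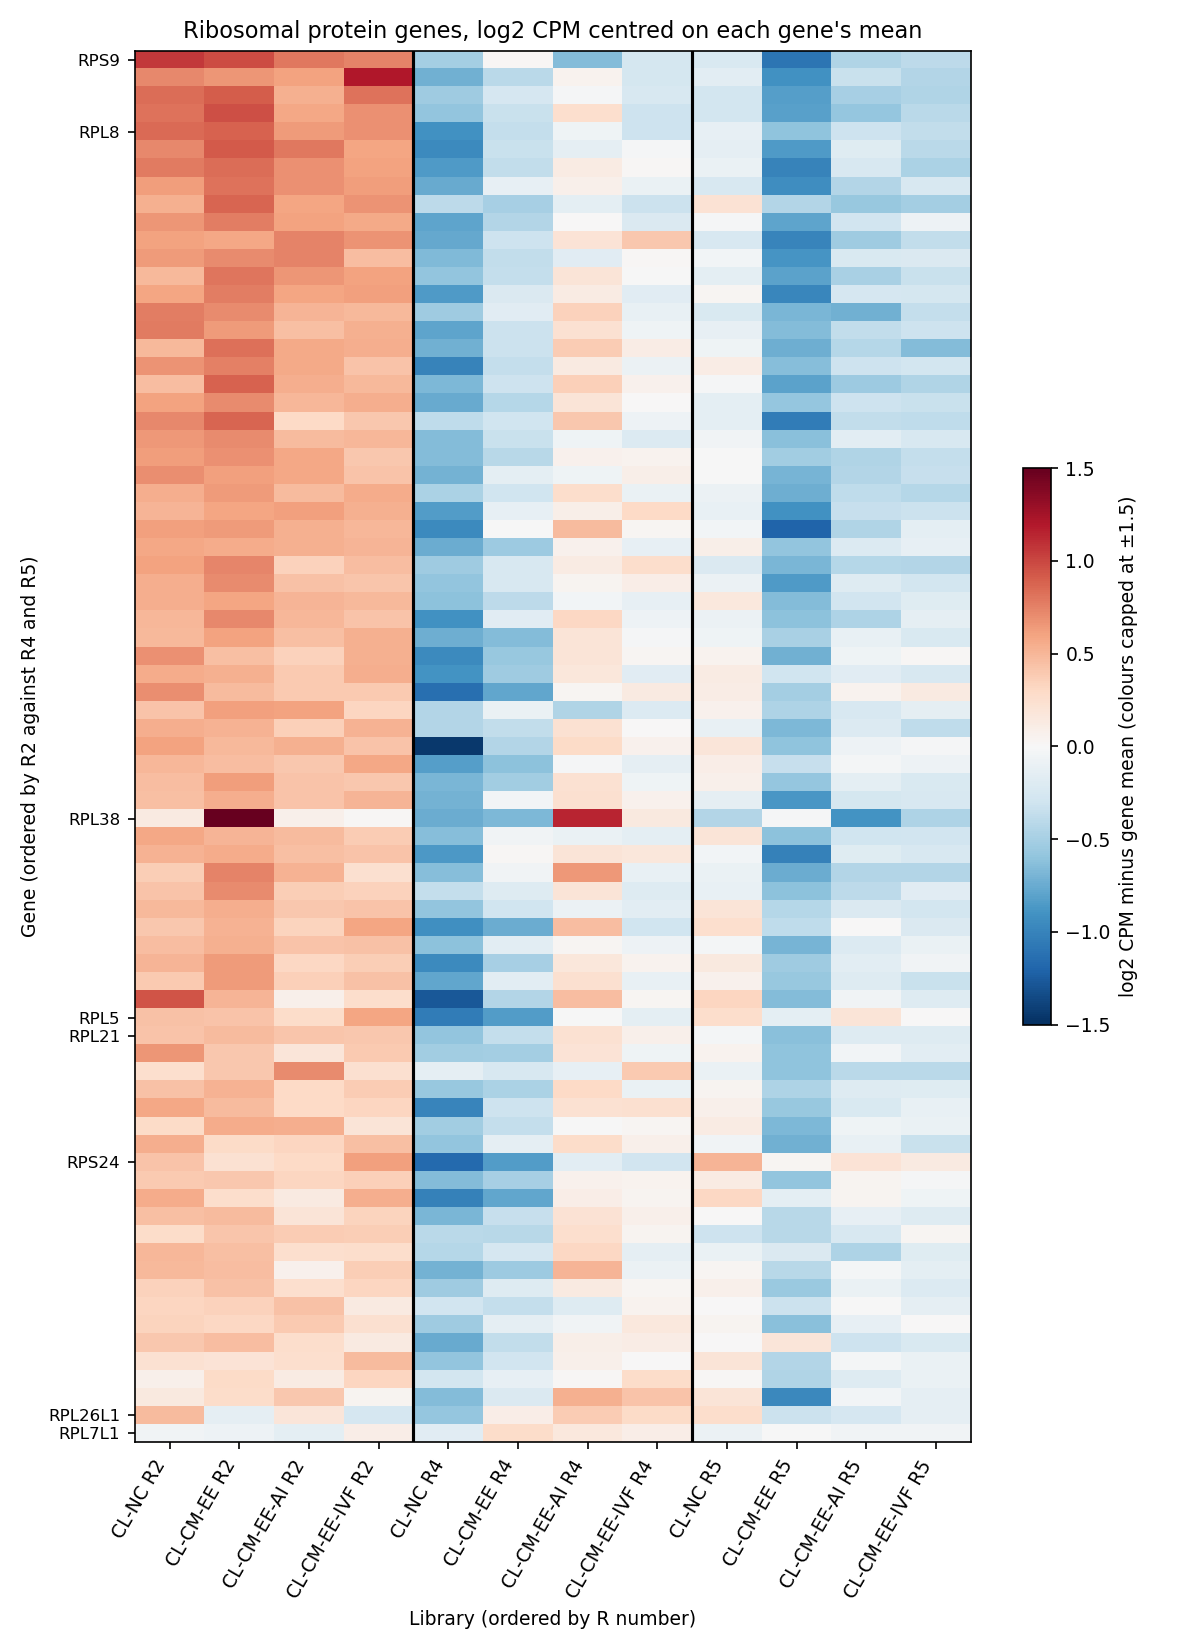
Log2 CPM of each of the 77 genes (rows) in each library (columns, ordered by R number), minus the gene's mean over the 12 libraries, with colours capped at 1.5 to either side. The 4 R2 columns are red in nearly every row, CL-NC R4 and CL-CM-EE R5 are the bluest columns, and RPL38 and RPL7L1 differ from it. Rows of 8 genes described in the text carry their symbols.

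The members moved as a block. After each gene was centred on its own mean log2 CPM, the root mean square difference of a member from the median member over the 12 libraries was 0.167 for the middle member, whereas genes of at least 10 CPM had a middle value of 0.545 from the same reference. The closest were RPL21 (0.058), RPS4X (0.078), RPL14 (0.085) and RPL13A (0.088). RPL21 stood at 185, 191, 183 and 182 CPM in R2, 91.4, 107, 161 and 145 CPM in R4, and 134, 89.2, 120 and 120 CPM in R5. Only 5 members departed by more than 0.3: RPL38, RPL7L1, RPS9, RPS24 and RPL26L1. RPS9 departed by 0.398, and its lowest R4 library (13.7 CPM) was CL-CM-EE-AI, where the median member of R4 was highest.

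Among 6906 genes outside the family with at least 10 CPM, the 6 nearest to the median member over the 12 libraries were EEF1G, a subunit of the elongation factor complex (0.092), the initiation factor subunit EIF3D (0.106), the mitochondrial nucleotide carrier SLC25A6 (0.108), the unnamed LOC112444531 (0.11), BTF3, part of the complex on nascent chains (0.114), and the actin-binding thymosin TMSB10 (0.123). Of the 77 members, 4 lay closer to their median than EEF1G did, and the likeness is described over these 12 libraries only.

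RPL38 departed most, at 0.567. Mutations of this large-subunit protein are known to disturb the translation of Hox messages. It stood at 37.5 CPM in CL-NC R2, 111.7 in CL-CM-EE R2, 36.1 in CL-CM-EE-AI R2 and 34.6 in CL-CM-EE-IVF R2. In R4 it had 20.2, 21.3, 75.2 and 37.7 CPM in the same group order, and in R5 25.1, 33.5, 18.3 and 24.8 CPM. The 2 high libraries belong to different groups and different R numbers, and the ratio of the highest to the lowest library was 6.1, the widest of the family.

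RPL7L1, a relative of RPL7 linked to ribosome assembly, departed by 0.438 and its libraries stayed in a narrow range. They ran from 14.4 to 19.6 CPM, with means of 15.6 in R2, 17.3 in R4 and 15.6 in R5 and an adjusted p of 0.694. RPL26L1, a near copy of RPL26, also had means close together between numbers, at 27.5, 27.5 and 24.2 CPM (adjusted p = 0.749, departure 0.362), though single libraries ran from 17.2 to 35.9 CPM. RPL26 itself went from 179 to 99.6 and 108 CPM (0.00779). Per 100 counts of RPL26, RPL26L1 gave 15.3 ± 3.34 in R2, 27.6 ± 4.02 in R4 and 22.5 ± 2.38 in R5 (SD, n = 4). Per 100 counts of RPL7, RPL7L1 gave 11.3 ± 0.47, 23.6 ± 8.47 and 16.8 ± 3.49. RPL22 (adjusted p = 0.0105) and its relative RPL22L1 (0.0466) both passed, and their ratio overlapped between numbers, at 23.5 ± 3.13, 29.5 ± 6.51 and 20.9 ± 1.89 per 100.

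RPS24 had its lowest values in R4. This protein, also mutated in Diamond-Blackfan anaemia, had 214, 186, 196 and 244 CPM in R2 and 228, 163, 184 and 175 CPM in R5, but 70.8, 89.2, 142 and 131 CPM in R4. The R4 libraries did not overlap with either of the other numbers. It was the sole member to pass between R5 and R4, 0.82 higher in R5 (edgeR adjusted p = 0.0218). RPL5 passed between the R numbers (adjusted p = 0.0177) with means of 306, 166 and 241 CPM in R2, R4 and R5, and the 0.57 between its R5 and R4 values on the log2 scale did not pass (adjusted p = 0.0926).

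**Figure D3:**
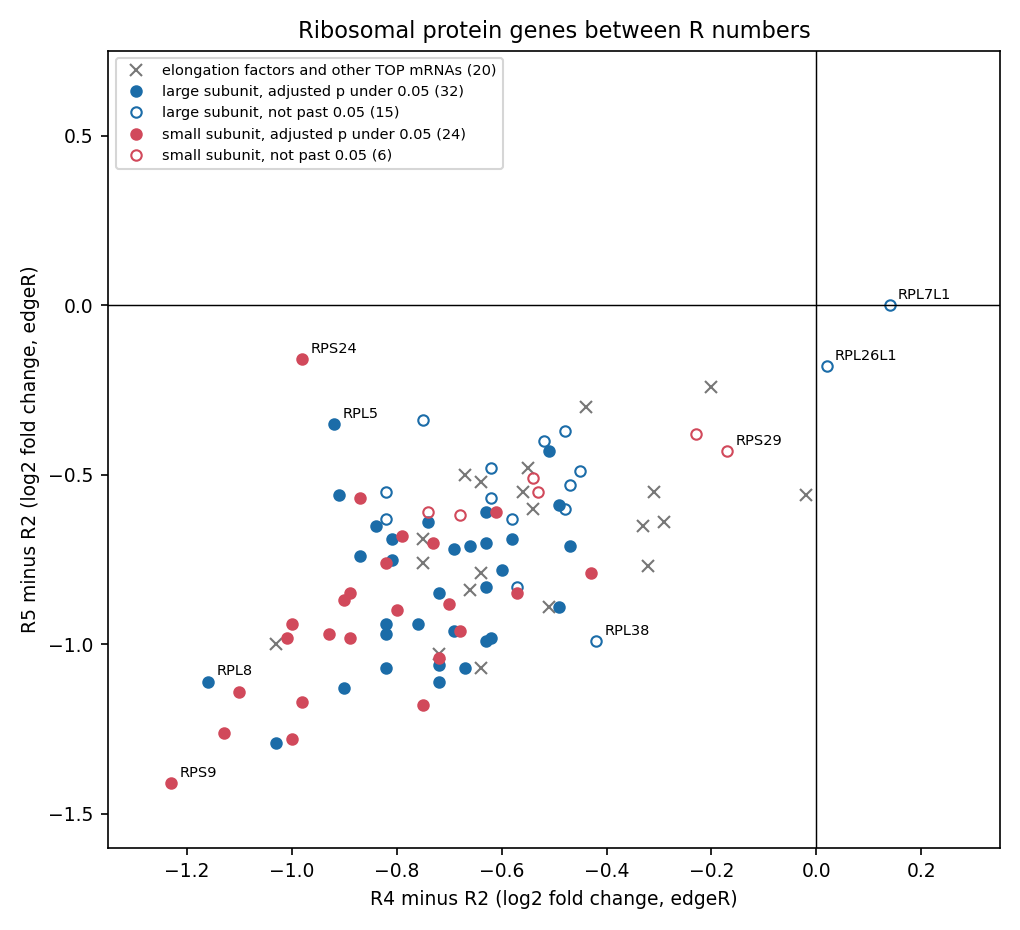
Log2 difference from R2 for R4 (x axis) and R5 (y axis) in the edgeR fit, for the 77 members by subunit (filled where the R terms passed an adjusted p of 0.05, open otherwise) and for 20 elongation factors and other TOP mRNAs (crosses). Nearly all points lie below 0 on both axes; RPL7L1 and RPL26L1 lie at about 0, and RPS24 and RPL5 are low in R4 with R5 nearer 0.

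Other genes of translation differed between R numbers by list, beside 26.7% of all genes that passed and 7.88% that passed with R2 highest. Of 6 ribosomal proteins outside the name rule, 3 passed between R numbers, all highest in R2, among them the laminin receptor homologue RPSA (152, 79.2 and 84.6 CPM) and the scaffold RACK1 (162, 101 and 85.4 CPM). Of 20 elongation factors and other TOP mRNAs, 11 passed and all 11 were highest in R2, among them PABPC1 (307, 197 and 145 CPM), NPM1 (207, 103 and 104 CPM) and EEF2 (336, 268 and 214 CPM). Those that did not pass in edgeR included EEF1A1 (391, 273 and 258 CPM, adjusted p = 0.0726) and TPT1 (507, 351 and 364.5 CPM, 0.105). The medians of the 20 were -0.56 in R4 and -0.64 in R5 against R2.

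The called genes that make ribosomes and regulate TOP mRNAs were divided over the R numbers. Of 36 genes for ribosome assembly and RNA polymerase I, 10 passed, near the 26.7% of all genes, 4 highest in R2 (such as DDX21 and FBL), 2 in R4 and 4 in R5 (such as UBTF), with medians of -0.04 and -0.10. Of 21 regulators of growth and TOP mRNAs, 11 passed, 2 highest in R2, 5 in R4 and 4 in R5. Those highest in R2 were EIF4EBP1, which binds EIF4E and keeps EIF4G from joining it (39.1, 15.5 and 9.71 CPM), and DDIT4, an mTOR inhibitor (84.9, 55.0 and 17.2 CPM). Those highest in R4 included RHEB (42.6, 51.6 and 20.5 CPM). TSC2 (17.2, 30.8 and 37.2 CPM) and DEPTOR (47.9, 48.7 and 85.8 CPM) were among those highest in R5. Of 15 genes for ribosomal protein surveillance and ribosome rescue, 8 passed, 2 highest in R2, 3 in R4 and 3 in R5. Of 76 mitochondrial ribosomal proteins, 9 passed, 5 highest in R2, 3 in R4 and 1 in R5, and the list's medians against R2 were 0.22 in R4 and -0.14 in R5.

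Markers of some cell types differed with the R number, beside 26.7% of all genes that passed and 7.88% that passed with R2 highest. Of 10 endothelial markers 7 passed, 5 of them highest in R2 (CDH5 284, 90.0 and 78.2 CPM) and 2 in R5 (TEK 30.5, 44.3 and 61.4 CPM, EGFL7 46.5, 28.6 and 53.0 CPM), and the list's summed level was 1313 to 1641 CPM in R2, 789 to 1147 in R4 and 862 to 1190 in R5. Of 8 fibroblast markers 6 passed, all highest in R2, with sums of 638 to 1023, 250 to 1000 and 335 to 414 CPM. Of 8 steroidogenic markers 7 passed, 6 highest in R4 and 1 in R5, with sums of 1431 to 2481, 1722 to 6433 and 1435 to 2135 CPM. Of 8 smooth muscle markers 6 passed, 4 of them highest in R4. Of 5 erythrocyte markers 2 passed, the haemoglobin genes HBA1 and HBA, near-identical copies, at 21.2 and 21.1 CPM in R2 and about 1 CPM elsewhere, while HBB, ALAS2 and SLC4A1 had means of at most 1.33 CPM in any R number. Of 8 endometrial epithelial markers 3 passed, KRT8 and CDH1 highest in R4 and ESR1 in R5. EPCAM, MUC1 and FOXA2 had means of at most 1.265 CPM in any R number. Of 8 macrophage markers 1 passed, of 7 T cell markers 0 and of 4 B cell markers 0. Whether these cell types bear on the ribosomal protein difference was not tested, and in bulk RNA fewer cells of a type and less RNA per cell cannot be told apart.

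Between the 4 groups no member passed the test. In edgeR 0 of 77 members passed in any of the 6 pairwise comparisons, 0 passed at an unadjusted p of 0.05, and DESeq2 called 0. Each group enters 3 of the 6 comparisons, so they share libraries. All genes tested gave 0% called at an adjusted p of 0.05 in every comparison. The shares of all genes at an unadjusted p of 0.05 were 0.75% for CL-CM-EE against CL-NC, 1.12% for CL-CM-EE-AI against CL-NC, 1.48% for CL-CM-EE-IVF against CL-NC, 1.28% for CL-CM-EE-AI against CL-CM-EE, 1.5% for CL-CM-EE-IVF against CL-CM-EE and 0.671% for CL-CM-EE-IVF against CL-CM-EE-AI. The median standard error of a member's log2 difference was 0.41 in this model of group means and 0.23 with the R number as a block, where 0 members passed as well and the lowest member p was 0.0714 (RPS29, CL-CM-EE-AI against CL-CM-EE). With the block, 0 of all genes passed at an edgeR adjusted p of 0.05. At an unadjusted p of 0.05 the shares of all genes ran from 0.861% to 5.15%, with 4.57% for CL-CM-EE-AI against CL-CM-EE.

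Medium of explants without an embryo set against the control gave a median member of -0.07 (all genes -0.03), with 21 of 77 members above 0 beside 46.3% of all genes. RPL38 stood at 1.01 (SE 0.59) with an edgeR adjusted p of 1, and at -0.07 without the CL-CM-EE R2 library of 111.7 CPM. That run leaves CL-CM-EE without the R number in which most members were highest, and the median member was lower there too. RPL10A was at -0.30, RPL7L1 at 0.18 and RPS27 at -0.36. With medium of explants and an in vivo embryo against the control, the median member was 0.10 (all genes 0.03), with 66 above 0 beside 53.1% of all genes. RPL38 stood at 0.65 (-0.02 without the CL-CM-EE-AI R4 library of 75.2 CPM), RPS29 at 0.38, RPL22L1 at 0.39 and RPL17 at 0.27, the lowest p being 0.295. With an in vitro embryo against the control the median was 0.07 (all genes -0.04), with 55 above 0 beside 45.9% of all genes, RPL17 at 0.27, RPS23 at 0.23, RPL7L1 at 0.16 and RPS15A at 0.32, and a lowest p of 0.399. RPL7L1 was the only member whose libraries did not overlap between 2 groups: 17.3, 17.3 and 15.6 CPM in CL-CM-EE-IVF against 15.5, 14.4 and 15.2 CPM in CL-NC. In that comparison 5.73% of all genes did not overlap. In the other 5, 0 members did so, beside 2.69% of all genes for CL-CM-EE against CL-NC, 3.93% for CL-CM-EE-AI against CL-NC, 3.34% for CL-CM-EE-AI against CL-CM-EE, 5.6% for CL-CM-EE-IVF against CL-CM-EE and 2.32% for CL-CM-EE-IVF against CL-CM-EE-AI.

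The in vivo embryo against explants alone gave a median member of 0.17 (all genes 0.06), with 69 above 0 beside 56.1% of all genes. RPS29, a small zinc-binding protein of the small subunit, stood at 0.54 (SE 0.35) with an edgeR adjusted p of 1, RPL7 at 0.38, RPL37 at 0.30 and RPL7A at 0.31. The in vitro embryo against explants alone gave 0.11 (all genes -0.02), with 60 above 0 beside 47.6% of all genes, RPL38 at -0.78 (0.26 without CL-CM-EE R2), RPS29 at 0.35, RPL31 at 0.29 and RPL34 at 0.40, and a lowest p of 0.211. In vitro against in vivo gave -0.05 (all genes -0.07), with 22 above 0 beside 37.8% of all genes, RPL22L1 at -0.40, RPL38 at -0.42 (0.25 without CL-CM-EE-AI R4), RPS23 at 0.19 and RPS29 at -0.19, and a lowest p of 0.362. Large- and small-subunit medians lay close together, at most as far apart as 0.10 and 0.12.

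**Figure D4:**
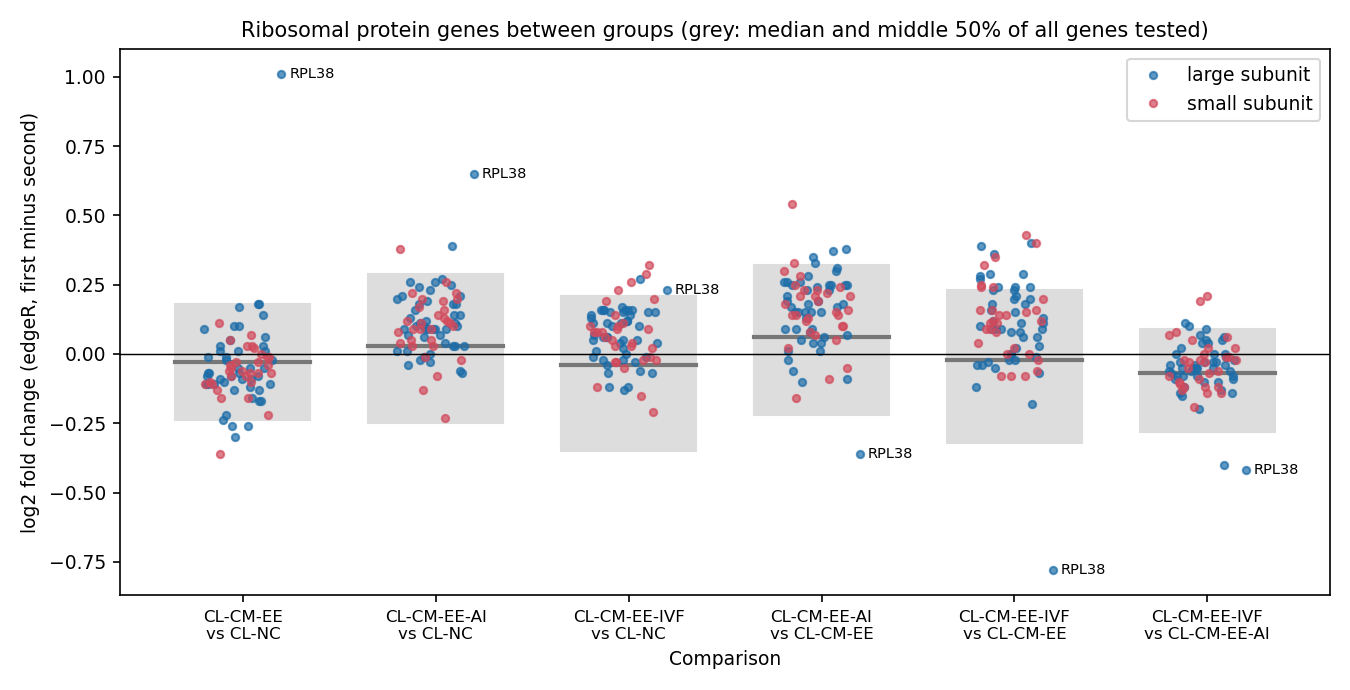
Log2 fold change of each member (edgeR, first group minus second) in the 6 comparisons, by subunit, over the median and the middle 50% of all genes tested (grey line and box). The members sit close to 0 and mostly within the grey boxes, with RPL38 at 1.01 in the first comparison and at -0.78 in the fifth.

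Within an R number, where each comparison is 1 library against 1 and has no test, the family shifted as a whole in opposite directions. In R4 the median member was lowest in CL-NC (log2 CPM 5.999) and highest in CL-CM-EE-AI (6.85). In R5 it was lowest in CL-CM-EE (5.96) and highest in CL-NC (6.74), and in R2 all 4 libraries lay between 7.18 and 7.33.

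In R4, the CL-CM-EE-AI library exceeded the control in 75 of the 77 members (median difference 0.84), and the CL-CM-EE-IVF library did so in 77 of 77 (0.67), beside 49.2% and 52.5% of all genes. In R5 the same comparisons went the other way, with 2 and 3 of 77 members above CL-NC and medians of -0.23 and -0.21, beside 51.8% and 49.9% of all genes. In R2 the medians were -0.08 and -0.09. For CL-CM-EE against CL-NC the medians were 0.06 in R2, 0.34 in R4 and -0.64 in R5. The sign therefore held across numbers for none of the 3 comparisons with the control. CL-CM-EE-AI was above CL-CM-EE by 0.49 in R4 and 0.36 in R5 but at -0.15 in R2, and CL-CM-EE-IVF above CL-CM-EE by 0.36 and 0.37 but at -0.14 in R2. The medians for CL-CM-EE-IVF against CL-CM-EE-AI were 0.01 in R2, -0.17 in R4 and 0.01 in R5. The median of all genes in these differences stayed between -0.09 and 0.11.

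**Figure D5:**
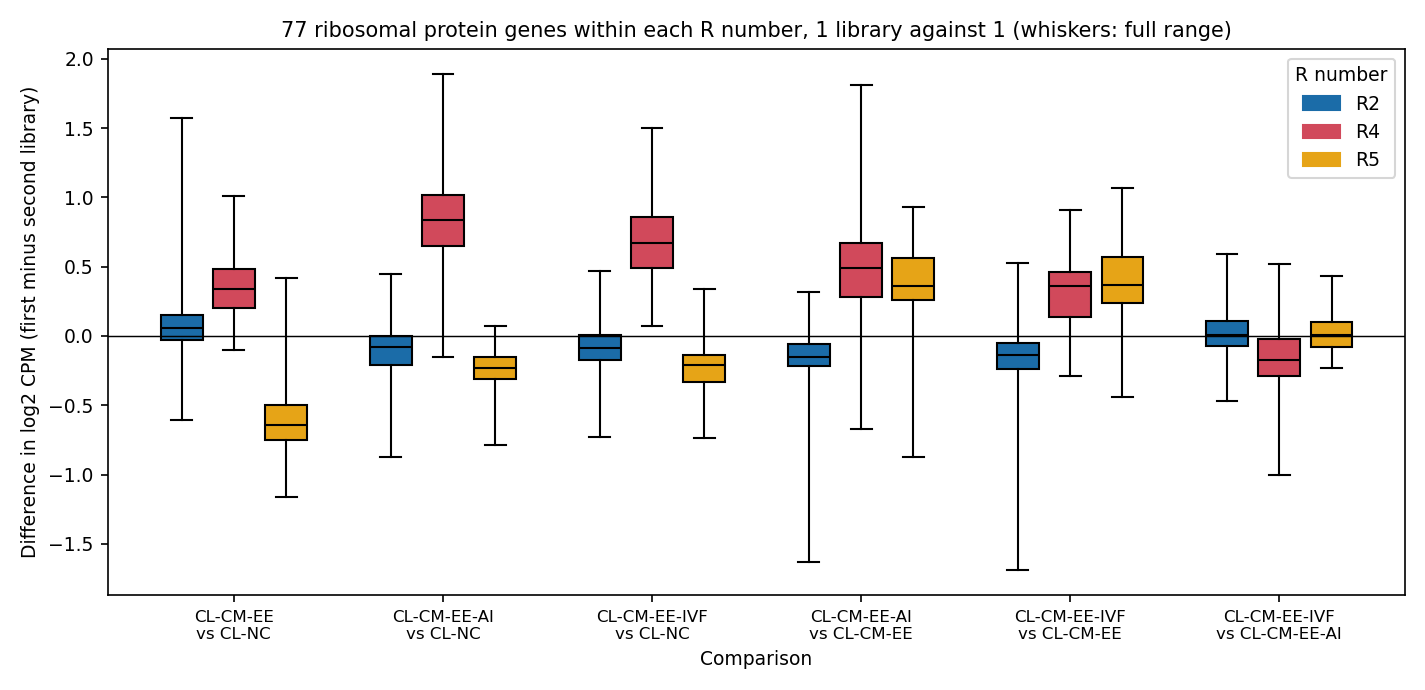
Difference in log2 CPM of the 77 members between the libraries of 2 groups with the same R number, for the 6 comparisons; boxes are quartiles with the median as a line, and whiskers span all members. In R4 most members lie above the control in every conditioned group, in R5 most lie below it, and the R2 boxes lie near 0.

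In the 4 R4 libraries other markers differed as well. From the control through explants alone and in vivo embryo to in vitro embryo, steroidogenic markers summed to 1722, 3136, 6433 and 3680 CPM, and the median member had log2 CPM of 5.999, 6.39, 6.85 and 6.62, the same rank order. Fibroblast markers summed to 250, 359, 598 and 1000 CPM, endothelial markers to 1147, 1103, 789 and 793 CPM, and endometrial epithelial markers to 41.4, 94.2, 149 and 95.04 CPM. The epithelial sums also had the rank order of the median member. So did the summed mitochondrially encoded messages, at 248400, 252800, 337200 and 258300 CPM. The epithelial sums were mostly KRT8, ESR1 and CDH1, with R4 means of 42.5, 27.2 and 18.5 CPM. EPCAM, MUC1 and FOXA2 had R4 means of at most 0.264 CPM. In the R5 libraries, in the same group order, steroidogenic sums were 1868, 1435, 2135 and 1907 CPM and endothelial sums 1190, 862, 990 and 918 CPM, beside a median member of 6.74, 5.96, 6.46 and 6.43. There the endothelial sums had the rank order of the median member and the steroidogenic sums did not, whereas in R4 the endothelial sums were lowest where the median member was highest. The R5 epithelial sums (34.7, 39.1, 44.0 and 50.7 CPM) did not have the rank order of the median member. Nor did the R5 sums of mitochondrially encoded messages, at 488600, 543100, 463300 and 381900 CPM. The part of these cell markers in the shifts of the ribosomal protein genes was not tested.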

How the data were processed

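For the corpus luteum the authors deposited read counts per gene from polyA RNA. STAR, featureCounts, cutadapt, Trim Galore and DESeq2 appear in the submitters' processing notes, and the sources used here give no versions, genome build, annotation or strand setting. Columns entered as estimated counts in the unit table held, like the other deposited columns, whole counts with none fractional. The labels list 20 corpus luteum samples, with a pair of titles for R4 and R5 in each group, and the table has 12 columns, which were taken as 12 libraries. Within groups 0 of 12 pairs of libraries were identical. The endometrial tables were not used here.

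Genes were filtered with filterByExpr, scaled by TMM and tested with edgeR 4.0.16 (quasi-likelihood F test, R 4.3.3) over all 12 libraries, with Benjamini-Hochberg adjustment over all 18939 genes and a two-sided threshold of 0.05. Group comparisons used group means; R numbers were tested by the R terms of a model with groups, and pairs of numbers as contrasts added after the data were seen. Log2 CPM used a prior count of 2. DESeq2 1.42.0 was an alternative, and scripts were tested on simulated data. Named members are the 4 with the lowest p per comparison, a list of members known for their roles or paralogues, those departing most and least from the median member, and the 4 with the lowest p between R numbers; a part ranking members per kilobase was not applied, for want of lengths, and some members the rule names are not reported here. Symbols were matched to the ARS-UCD2.0 gene table. Members and lists were chosen with earlier results of these data known.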

Additional observations from a re-analysis of the deposited data

How the results depend on the processing

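In the 6 group comparisons edgeR called 0 members under each alternative run: the R number as a replicate block, each comparison fitted on its 2 groups, DESeq2, no filter, RLE size factors, scaling without mitochondrial, rRNA and member genes, R4 and R5 libraries only (chosen after the data were seen), and each library left out. R numbers were not taken as pairing the samples in the main model, since the labels do not say that they do. Correlations ran from 0.081 to 0.662 for same-number libraries and from -0.49 to 0.198 for libraries of different numbers. All 12 libraries were closest to one of their own number. With the replicate block the median member was -0.10 for CL-CM-EE against CL-NC and 0.24 for CL-CM-EE-AI against CL-CM-EE. Leaving out 1 library turned the sign of the median member, from -0.57 (without CL-CM-EE R2) to 0.32 (without CL-NC R2) for CL-CM-EE against CL-NC, from -0.16 to 0.49 for CL-CM-EE-AI against CL-NC, from -0.20 to 0.44 for CL-CM-EE-IVF against CL-NC, from -0.09 to 0.66 for CL-CM-EE-AI against CL-CM-EE, from -0.13 to 0.61 for CL-CM-EE-IVF against CL-CM-EE and from -0.27 to 0.19 for CL-CM-EE-IVF against CL-CM-EE-AI. Between R numbers 56 members were called, 72 by DESeq2, 65 with RLE size factors, 61 with the other scaling, and 39 (without CL-CM-EE-AI R5) to 71 (without CL-NC R5) when a library was left out. Of all genes, 26.7% were called in the main fit, 17.7% without CL-CM-EE-AI R5 and 24.6% without CL-NC R5. The shares of all genes under DESeq2 and the other scalings are not given here. RLE moved the all-gene medians from 0.04 and 0.08 to -0.04 and -0.02 and the member medians to -0.80 and -0.86. The mean share of the family was 2.15% outside mitochondrial genes and rRNA. With 1 library left out, 1 group lacks an R number and the model of group means has no R terms. Differences between R numbers therefore enter the group medians above and the RPL38 fold changes that follow. RPL38 in CL-CM-EE against CL-NC went from 1.01 to -0.07 without CL-CM-EE R2, and against CL-CM-EE in CL-CM-EE-IVF from -0.78 to 0.26; without CL-CM-EE-AI R4 it went from 0.65 to -0.02 for CL-CM-EE-AI less CL-NC and from -0.42 to 0.25 in CL-CM-EE-IVF against CL-CM-EE-AI. Leaving out CL-CM-EE-AI R4 brought its R difference past the threshold (edgeR adjusted p 0.0462), and leaving out CL-CM-EE R4 took RPL5 out of it (0.0811). The median standard error of a member was 0.41, and 0.23 with the replicate block; the lowest count of a member in any library was 159.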
